A study of Rattus norvegicus with 200 samples.

Results

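Mitochondrial respiratory complexes II, III, IV and V are built in large part from nuclear-encoded subunits, and the transcripts of these subunits were followed here in rat brain libraries labelled microglia. A gene was included by its symbol, which had to be Sdha, Sdhb, Sdhc, Sdhd or Cyc1 or begin with Uqcr, Cox4 to Cox8 or Atp5, and by a mean of at least 1 CPM (the count of a gene per 1000000 counts of its library) over the 200 libraries. Of the 20361 genes in the count table, 47 matched by symbol and 39 also reached that level: 4 subunits of complex II, 8 of complex III, 11 listed under complex IV and 14 of complex V. The other 2, Atp5s and Atp5sl, match by name only, since RefSeq now calls them Dmac2l and Dmac2 and neither is a subunit. All 39 passed the filter on low counts that was applied to every gene. Just inside the level rule lay Cox7a1 at a mean of 1.85 CPM and just outside it Uqcr10 at 0.829 CPM. The other genes below it were Cox4i2 (0.505 CPM), Atp5f1 (0.307), Cox7a2l2 (0.297), Cox6b2 (0.259), Cox6a2 (0.246), Cox8b (0.0781) and Cox7b2 (0.00862). Of the subunits that mitochondrial DNA encodes, 0 were listed in the table under the symbols searched, so only the nuclear share of each complex is described.

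Wild-type male Wistar rats were given chow or a high-fat diet (HFD). On each diet, food was available ad libitum, in the dark phase only (dark-feeding) or in the light phase only (light-feeding). Bulk RNA sequencing of cells labelled microglia gave 34 libraries for chow ad libitum, 33 for chow dark-feeding, 33 for chow light-feeding, 34 for HFD ad libitum, 33 for HFD dark-feeding and 33 for HFD light-feeding. Each group had 5 to 7 libraries at each of the Zeitgeber times ZT2, ZT6, ZT10, ZT14, ZT18 and ZT22, where ZT0 is lights on and ZT12 lights off. The labels give neither the age of the rats, the composition of the diets nor the length of feeding, and they do not say that each library came from a separate rat, so the p-values below measure the spread between libraries.

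The respiratory chain passes electrons from nutrients to oxygen in the inner mitochondrial membrane. Complex II (succinate dehydrogenase) oxidises succinate from the citric acid cycle and hands the electrons to coenzyme Q. Complex III (the cytochrome bc1 complex) passes them on to cytochrome c, and complex IV (cytochrome c oxidase) to oxygen. Complexes III and IV pump protons out of the matrix while they do so, and complex V (ATP synthase) lets the protons back in to make ATP. Complex II is wholly nuclear-encoded, whereas complexes III, IV and V also hold subunits made from mitochondrial DNA. Genes for the nuclear subunits often carry promoter sites for NRF1 and for ETS factors such as GABP, and for YY1.

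Promoter windows of 300 bases, from 250 bases before to 50 bases after the start site of RefSeq's table for the rat assembly GRCr8, were at hand for 31 of the 39 genes. Both strands were searched for the words GCATGCGC (NRF1), CCGGAAG (ETS) and AAGATGGC (YY1). The NRF1 word was in 6 windows (19.4%, against 4.79% of the windows of all 11217 tested genes that have one), the ETS word in 13 (41.9% against 16.6%) and the YY1 word in 7 (22.6% against 5.2%). At least 1 of these words was in 18 windows, 58.1% against 24.1% of all. The words CCAAT (29% against 37.3%), GGGCGG (SP1, 38.7% against 60.8%) and the E-box CACGTG (9.68% against 9.24%) were at or below the level of all windows. No match of 1 word overlapped a match of another, and matches of the NRF1 word on the 2 strands overlapped each other in Atp5g2, Atp5o and Atp5i. A match is a description of the letters and does not show that a factor binds. The 6 stretches printed here run from 120 bases before to 15 bases after the start site, 5′ to 3′ on the gene's own strand, with matches of the 3 words in capitals. They belong to genes on which the results below turn, and show the ETS word without the others (Uqcrq and Cox5b), 2 of the 3 words in 1 stretch (Cox8a, Atp5i and Atp5o) and none (Atp5e).
Uqcrq, chr10:38089964-38090098, minus strand: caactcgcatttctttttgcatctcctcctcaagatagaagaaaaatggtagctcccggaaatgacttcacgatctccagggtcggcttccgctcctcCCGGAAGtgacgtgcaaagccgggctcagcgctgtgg
Cox5b, chr9:46417717-46417851, plus strand: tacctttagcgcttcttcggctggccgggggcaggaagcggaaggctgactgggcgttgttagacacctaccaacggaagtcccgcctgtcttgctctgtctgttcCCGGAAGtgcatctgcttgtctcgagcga
Cox8a, chr1:213833609-213833743, minus strand: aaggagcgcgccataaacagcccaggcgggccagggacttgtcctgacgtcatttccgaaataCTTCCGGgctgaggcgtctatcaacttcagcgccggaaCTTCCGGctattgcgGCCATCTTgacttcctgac
Atp5e, chr3:183680158-183680292, minus strand: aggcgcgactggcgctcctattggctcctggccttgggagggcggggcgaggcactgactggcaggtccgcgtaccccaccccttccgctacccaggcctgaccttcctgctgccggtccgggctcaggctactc
Atp5i, chr14:1464740-1464874, plus strand: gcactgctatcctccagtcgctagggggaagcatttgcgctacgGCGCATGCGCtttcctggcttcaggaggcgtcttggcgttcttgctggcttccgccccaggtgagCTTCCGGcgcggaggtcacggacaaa
Atp5o, chr11:44657469-44657603, minus strand: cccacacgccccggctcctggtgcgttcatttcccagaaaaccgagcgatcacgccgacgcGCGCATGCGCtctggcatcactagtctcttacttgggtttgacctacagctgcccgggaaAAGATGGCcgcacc

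Total counts per library, in units of 1000000, ran from 3.778 to 11.64, with a median of 7.548. The label microglia was checked against 14 microglial markers, none of which was at 0 in all libraries. The summed level of the 13 that passed the filter on low counts had group medians of 914.6 to 1088 CPM. The same medians were 14100 to 16760 CPM for 10 oligodendrocyte markers, 5728 to 5972 CPM for 10 neuronal markers and 397 to 606.3 CPM for 10 astrocyte markers. The libraries therefore held much RNA of other brain cells, and the levels below are those of the mixture. The diets also sit in separate title series (MG_C and MG_H), so that diet and title series cannot be told apart. In 6 libraries the mean level of the 39 genes, on a log2 scale centred on all 200 libraries, lay more than 0.5 above the mean: title numbers 49, 50 and 51 of chow dark-feeding at ZT14 (0.68, 0.84 and 0.76), 53 of chow ad libitum at ZT14 (0.74), 126 of chow light-feeding at ZT18 (0.66) and 45 of HFD ad libitum at ZT6 (0.58). The other 194 libraries lay between -0.43 and 0.47. The levels of cytosolic ribosomal protein genes (0.74 to 1.04), astrocyte markers (0.60 to 1.06) and erythrocyte markers (1.12 to 4.34) were also above the mean in each of the 6 libraries. The diet counts and medians and the rhythm counts are given with and without them.

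Per transcript length, on the deposited FPKM scale, cytochrome c oxidase subunits led the list. Cox4i1, the regulatory subunit IV, had 189.5, 260.7 and 567.1 FPKM (lowest, median and highest of 200 libraries). Cox6a1 had 128.4, 204.9 and 528 FPKM, Atp5b (the catalytic beta subunit of ATP synthase) 146.9, 196.9 and 320.2 FPKM, and Cox8a 112.9, 195.6 and 434.2 FPKM. The ranges of the latter 3 overlapped almost wholly, so that their order is not firm. Cyc1, the haem-bearing cytochrome c1 of complex III, followed at a median of 146.7 FPKM with a narrow range (109.8 to 187.8). The lowest subunits were Uqcrb, the ubiquinone-binding protein of complex III, at a median of 15.96 FPKM (7.85 to 36.63), and Cox7a1, by its symbol the heart and muscle form of subunit VIIa, at 1.475 FPKM (0.47 to 3.16). The median over genes was 42.6 FPKM for complex II, 46.7 for complex III, 95.1 for complex IV and 66.4 for complex V. Atp5i, with a median of 122 FPKM, is uncertain on this scale, because the effective length implied by its count and FPKM was 44.31 bases. Implied lengths were also short for other genes, such as Atp5e (105.8 bases), Atp5j2 (159.2), Cox7b (174.1) and Cox6c (176), against 1999 for Sdha. The order of genes and complexes on this scale therefore depends on these lengths.

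On HFD, most of these genes were lower than on chow under both restricted feeding schedules, and few were under ad libitum feeding. A gene was called where edgeR's quasi-likelihood test, with time as a factor, gave a Benjamini-Hochberg adjusted p under 0.05 over 14393 genes. Under dark-feeding 35 of 39 were lower and 1 higher on HFD, against 23.1% of all genes called lower and 22.8% higher. The count under light-feeding was 28 lower and 1 higher, with 25.1% of all genes called lower and 25.1% higher. Under ad libitum feeding 7 were lower and 0 higher, beside 10.1% of all genes called lower and 9.96% higher, and all 7 of those genes had adjusted p-values of at most 0.024. The median log2 fold change of the 39 genes was -0.07 under ad libitum, -0.25 under dark-feeding and -0.24 under light-feeding, and that of all genes tested was -0.01 in each. Of the HFD ad libitum libraries, 28 have title numbers up to 46, and all restricted HFD libraries have higher ones. Schedule and title order on HFD can thus hardly be told apart. With the 6 HFD ad libitum libraries of title number over 46 alone, at the times they cover, the ad libitum median was -0.16. In that fit Uqcrq passed, whereas Sdhb and Cox4i1 no longer did. On the FPKM scale, tested with limma, 10, 35 and 31 of the 39 were lower, and the calls over all genes shifted downwards: 1114 higher and 1932 lower under ad libitum, 2346 and 4369 under dark-feeding, and 2741 and 4560 under light-feeding, where the counts gave 1434 and 1456, 3278 and 3325, and 3619 and 3615. In bulk RNA, fewer cells of a type and less RNA per cell cannot be told apart. Treating each run of neighbouring title numbers within a group and time as 1 replicate left 0, 24 and 22 genes lower under the 3 schedules. For this fit and those that follow in this paragraph, the share of all genes called is not given, and the shares above do not apply. Without ZT14 the counts were 3, 26 and 29, and the medians -0.01, -0.14 and -0.27. Without title numbers 49 to 53, left out after seeing the data, 6, 34 and 28 were lower, with medians of -0.02, -0.17 and -0.24. Without the 6 high libraries 9, 34 and 28 were lower, with medians of -0.06, -0.17 and -0.22. The medians under ad libitum and dark-feeding were nearer to 0 without these libraries. The 6 were picked by the level of the 39 genes itself and most are on chow. A shift of these medians towards 0 therefore follows in part from how the libraries were picked.

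**Figure D1:**
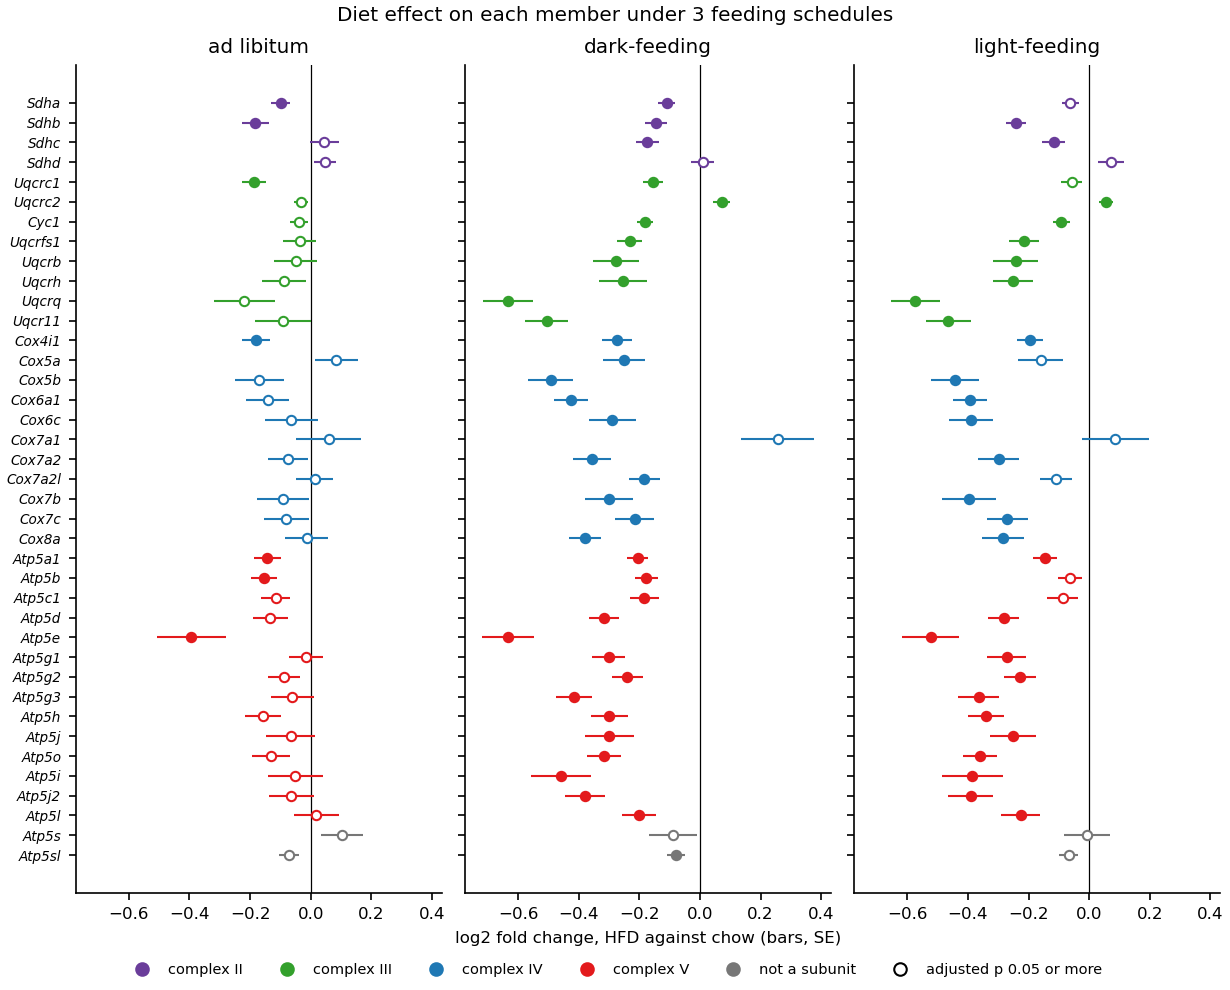
Log2 fold change (HFD minus chow) of each of the 39 genes under ad libitum, dark-feeding and light-feeding, with its standard error (bars), coloured by complex, filled where the adjusted p was under 0.05 and open otherwise. Most points lie left of 0 under the restricted schedules, with medians of -0.25 and -0.24, and nearer to 0 under ad libitum.

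Complex II, whose 4 subunits also serve the citric acid cycle, had the smallest diet effects. Sdhb, the iron-sulfur protein, was lower on HFD under all 3 schedules. Its lowest, median and highest levels were 25.5, 30.04 and 44.5 CPM in chow ad libitum, 24.9, 30.6 and 46.0 in chow dark-feeding, and 26.1, 34.2 and 39.9 in chow light-feeding. On HFD they were 18.9, 27.9 and 35.9 CPM in ad libitum, 23.7, 28.0 and 35.7 in dark-feeding, and 23.6, 27.7 and 31.7 in light-feeding. The ranges of the diets overlapped, yet all 33 HFD light-feeding libraries lay below the chow median and 21 of the 33 chow libraries lay above every HFD library. The log2 fold changes were -0.18 ± 0.04 (SE; edgeR adjusted p = 0.0020), -0.14 ± 0.04 (0.00065) and -0.24 ± 0.03 (1.7e-08). Sdha, the flavoprotein that holds the catalytic site, was lower under ad libitum (-0.10 ± 0.03) and dark-feeding (-0.11 ± 0.03), and had -0.06 ± 0.03 under light-feeding (edgeR adjusted p = 0.057). The 2 membrane anchors differed from each other. Sdhc was lower under dark-feeding (-0.17 ± 0.04) and light-feeding (-0.12 ± 0.04), whereas Sdhd passed in 0 of the 3 comparisons, with 0.05 ± 0.04, 0.01 ± 0.04 and 0.07 ± 0.04.

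Under the restricted schedules the small subunits Uqcrq and Uqcr11 had the largest differences in complex III, whereas under ad libitum the core protein Uqcrc1 was the 1 gene of the complex called. Uqcrq, among the smallest proteins of the complex, had 4.16, 7.81 and 20.1 CPM in chow ad libitum, 5.34, 9.67 and 22.9 in chow dark-feeding and 6.63, 10.75 and 17.0 in chow light-feeding. In HFD its levels were 4.39, 6.87 and 12.2 CPM under ad libitum, 4.16, 6.36 and 9.69 under dark-feeding and 3.97, 6.985 and 9.77 under light-feeding. Of the 33 HFD libraries, 32 lay below the chow median under dark-feeding and 33 under light-feeding, and the HFD median was the lower at each of the 6 times in both. Its log2 fold change was -0.63 ± 0.08 under dark-feeding (edgeR adjusted p = 2.2e-08) and -0.57 ± 0.08 under light-feeding (3.5e-08). Under ad libitum it was -0.22 ± 0.10 and did not pass (adjusted p = 0.11). With the HFD ad libitum libraries of title number over 46 alone, at the times they cover, it was -0.65 (edgeR adjusted p = 0.044). Uqcr11, another small subunit, had -0.51 ± 0.07 under dark-feeding and -0.46 ± 0.08 under light-feeding, both called. Uqcrb, Uqcrh (the hinge protein) and Uqcrfs1 (the Rieske iron-sulfur protein) were lower under both restricted schedules, by 0.22 to 0.28 on the log2 scale.

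Uqcrc2, core protein 2, was the 1 gene of the list called higher on HFD, at 0.07 ± 0.03 under dark-feeding (edgeR adjusted p = 0.028) and 0.06 ± 0.02 under light-feeding (0.035). Its levels were 139.7, 164.1 and 213.2 CPM in chow dark-feeding and 155.2, 173.5 and 217.3 in HFD dark-feeding. Under light-feeding they were 135.5, 167.4 and 187.8 CPM on chow and 152.0, 171.9 and 190.0 on HFD. These ranges overlapped almost wholly, and both calls were lost on the FPKM scale, without ZT2 and without ZT10. Under ad libitum the difference for Uqcrc2 was -0.03 ± 0.02, not called. Uqcrc1, core protein 1, was lower under ad libitum (-0.19 ± 0.04, adjusted p = 0.00089) and dark-feeding (-0.15 ± 0.03), and had -0.06 ± 0.03 under light-feeding (adjusted p = 0.17). Cyc1 was lower under dark-feeding (-0.18 ± 0.03) and light-feeding (-0.09 ± 0.03).

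Cytochrome c oxidase had 10 of 11 genes lower on HFD under dark-feeding and 8 of 11 under light-feeding, and 1 of 11 under ad libitum. Cox5b, a nuclear subunit that binds zinc on the matrix side, had the lowest fold change of this complex under both restricted schedules. It had 11.8, 17.6 and 44.6 CPM in chow dark-feeding and 9.97, 13.4 and 18.2 in HFD dark-feeding, with 32 of 33 HFD libraries below the chow median. Under light-feeding it had 11.2, 20.2 and 34.5 CPM on chow and 9.26, 14.7 and 22.0 on HFD, and 31 of 33 HFD libraries lay below the chow median. The log2 fold changes were -0.49 ± 0.07 (edgeR adjusted p = 3.4e-07) and -0.44 ± 0.08 (4.4e-06). Under ad libitum, where chow had 11.75, 17.2 and 37.1 CPM and HFD 9.04, 16.2 and 28.4, it was -0.17 ± 0.08 and did not pass (adjusted p = 0.13). Its partner Cox5a had -0.25 ± 0.07 under dark-feeding, -0.16 ± 0.07 under light-feeding (adjusted p = 0.066) and 0.09 ± 0.07 under ad libitum (0.42).

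Cytochrome c oxidase has tissue forms of some subunits. In the pairs Cox4i1 and Cox4i2, Cox6a1 and Cox6a2, Cox7a2 and Cox7a1, and Cox8a and Cox8b, the widely expressed form, named first, had the higher level and was lower on HFD under both restricted schedules. Cox6a1, the liver-type form of subunit VIa, had 47.3, 63.4 and 132.2 CPM in chow dark-feeding and 40.2, 49.3 and 61.9 in HFD dark-feeding. All 33 HFD libraries lay below the chow median, 12 of them below the lowest chow library. Under light-feeding the levels were 44.7, 65.5 and 94.1 CPM on chow and 37.65, 49.9 and 62.4 on HFD, again with all 33 below the chow median. Its log2 fold change was -0.43 ± 0.05 (edgeR adjusted p = 1.4e-08) under dark-feeding and -0.39 ± 0.06 (3.3e-08) under light-feeding, and -0.14 ± 0.07 under ad libitum (0.15). Cox8a, the liver-type form of subunit VIII, had -0.38 ± 0.05 under dark-feeding (edgeR adjusted p = 5.3e-08), -0.28 ± 0.07 under light-feeding (0.00053) and -0.01 ± 0.07 under ad libitum (0.92). Its levels under ad libitum were 28.8, 43.2 and 88.1 CPM on chow and 29.3, 44.6 and 72.9 on HFD, which overlapped throughout. Cox4i1 was lower on HFD under all 3 schedules, at -0.18 ± 0.05 under ad libitum (adjusted p = 0.0051), -0.27 ± 0.05 under dark-feeding and -0.19 ± 0.04 under light-feeding. Cox7a2, the liver-type form of subunit VIIa, had -0.36 ± 0.06 and -0.30 ± 0.07 under the restricted schedules. Its muscle-type partner Cox7a1, at group medians of 1.64 to 1.97 CPM, was the only other gene of the list besides Sdhd and Uqcrc2 with positive fold changes under both, at 0.26 ± 0.12 (adjusted p = 0.075) and 0.09 ± 0.11 (0.54), neither called. The gene identifier of Cox7a1 had no match in RefSeq's table, so it is known here by its symbol alone. Its implied effective length was 1263 bases, against 203.6 for Cox7a2. Cox7a2l, which helps complexes III and IV associate, was called under dark-feeding (-0.18 ± 0.05) and not under light-feeding (-0.11 ± 0.05, adjusted p = 0.081).

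ATP synthase had all 14 genes lower on HFD under dark-feeding, 12 of 14 under light-feeding and 3 of 14 under ad libitum. Atp5e, the epsilon subunit and smallest part of the catalytic head, had the lowest fold change of the complex under each schedule. Its levels were 3.74, 5.78 and 14.2 CPM in chow ad libitum and 3.16, 4.94 and 13.3 in HFD ad libitum. Under dark-feeding they were 4.11, 6.14 and 15.9 CPM on chow and 3.04, 4.44 and 6.44 on HFD, and under light-feeding 3.49, 7.03 and 12.15 on chow and 2.57, 4.82 and 7.89 on HFD. The HFD libraries were the low ones: 28 of 34, 31 of 33 and 32 of 33 lay below the chow median of their schedule. The log2 fold changes were -0.39 ± 0.11 (edgeR adjusted p = 0.010), -0.63 ± 0.09 (4.2e-08) and -0.52 ± 0.09 (4.5e-06). The large head subunits Atp5a1 (alpha) and Atp5b (beta), which hold the nucleotide sites, were lower by less. Atp5a1 had -0.14 ± 0.04, -0.21 ± 0.03 and -0.15 ± 0.04 under ad libitum, dark-feeding and light-feeding, all called. Atp5b had -0.15 ± 0.04 and -0.18 ± 0.04, both called, and -0.06 ± 0.04 under light-feeding (adjusted p = 0.18). Its levels under dark-feeding were 243.1, 301.4 and 445.4 CPM on chow and 227.9, 277.4 and 344.5 on HFD, which overlapped widely.

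The c ring, the rotor through which protons pass, is made of 1 protein that 3 genes encode. All 3 were lower on HFD under both restricted schedules and none under ad libitum. Atp5g3 had 26.7, 36.3 and 70.8 CPM in chow dark-feeding and 22.0, 28.5 and 39.3 in HFD dark-feeding, with a log2 fold change of -0.42 ± 0.06. Under light-feeding it had -0.36 ± 0.07 and under ad libitum -0.06 ± 0.07. Atp5g1 had -0.30 ± 0.05, -0.27 ± 0.06 and -0.01 ± 0.06 in the same order, and Atp5g2 -0.24 ± 0.05, -0.23 ± 0.05 and -0.09 ± 0.05. Because the 3 genes encode the same mature protein, reads in similar stretches could be split between them. In the membrane part, Atp5i (subunit e, which joins ATP synthase into dimers) had -0.46 ± 0.10, -0.38 ± 0.10 and -0.05 ± 0.09. Atp5l (subunit g) was the highest of the complex under ad libitum, at 0.02 ± 0.07, and was lower under dark-feeding (-0.20 ± 0.06) and light-feeding (-0.23 ± 0.06).

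Atpif1, the inhibitor that stops ATP synthase from running backwards and is not matched by the symbol rule, differed in the same direction. It had 7.42, 12.4 and 36.0 CPM in chow dark-feeding and 8.54, 11.1 and 15.3 in HFD dark-feeding, and 8.96, 15.3 and 27.3 in chow light-feeding against 7.42, 11.3 and 14.2 in HFD light-feeding. The log2 fold change was -0.31 ± 0.08 (edgeR adjusted p = 0.0018) and -0.45 ± 0.07 (5.7e-07), and -0.12 ± 0.09 under ad libitum (0.36). Of the 2 genes that match by name only, Atp5sl was called under dark-feeding (-0.08 ± 0.03, adjusted p = 0.020) and Atp5s in 0 comparisons.

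**Figure D2:**
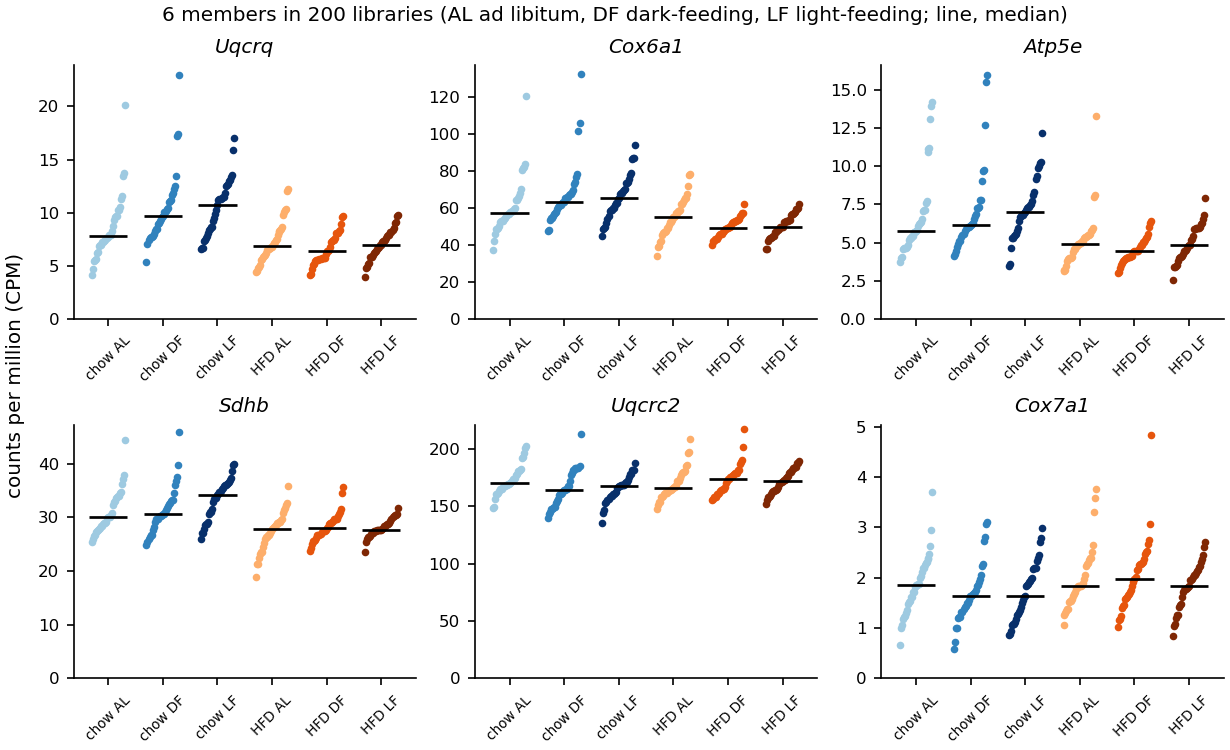
CPM in every library (points, linear axis from 0) with the group median (line) for Uqcrq, Cox6a1, Atp5e, Sdhb, Uqcrc2 and Cox7a1, in chow and HFD under ad libitum (AL), dark-feeding (DF) and light-feeding (LF); libraries are sorted by value within a group. HFD dark-feeding and light-feeding libraries of Uqcrq, Cox6a1 and Atp5e lie almost all below the chow medians, while those of Uqcrc2 overlap.

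Transcript length moved with these differences. The effective length that counts and FPKM imply could be estimated for 13659 of the tested genes, and 27 of the 39 genes fell in the shortest decile of them by length (at most 856.5 bases). All 1366 genes of that decile had a median log2 fold change of -0.10 under ad libitum, -0.18 under dark-feeding and -0.17 under light-feeding, and 17.6%, 50.6% and 48.1% of them were called lower. The longest decile had medians of 0.06, 0.13 and 0.11. Relative to the median of its own length decile, the median gene of the list stood at 0.01 under ad libitum, -0.10 under dark-feeding and -0.08 under light-feeding, and 15, 35 and 32 of the 39 were below it. The shortest decile spans 44.31 to 856.5 bases, and most of the 27 genes in it are far shorter than its upper end. Its median therefore does not match their length, and a difference beyond length was not tested by this comparison. Atp5e and Uqcrq were the farthest below under dark-feeding, both by 0.45, followed by Uqcr11, which lay 0.33 below. Within the list, the fold change and the length had a Pearson r of 0.23, 0.72 and 0.80 across the 39 genes, which are not independent. All 27 short genes were lower under dark-feeding, beside 8 of the 12 longer ones, and under light-feeding 24 of 27 beside 4 of 12.

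**Figure D3:**
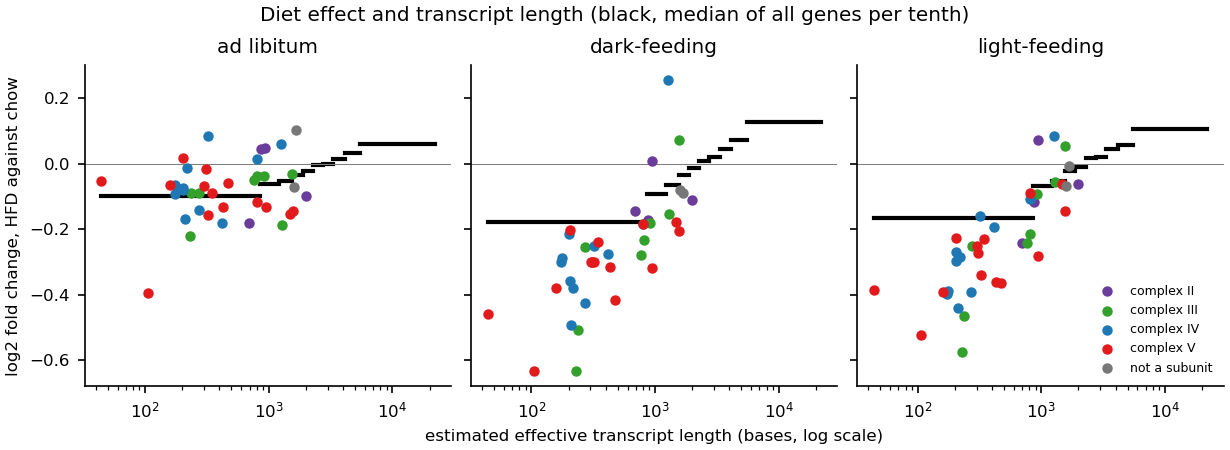
Log2 fold change (HFD minus chow) against effective transcript length in bases (log axis) for the 39 genes (points, coloured by complex), with the median of each decile of all genes by length (black lines). Short transcripts lie lowest under dark-feeding and light-feeding, and most of the 39 lie below the median of their length decile there.

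With offsets that remove each library's trend of counts with length, 4, 15 and 12 of the 39 genes were called lower and 5, 4 and 2 higher, under ad libitum, dark-feeding and light-feeding. Of all 14393 genes, 1146, 2843 and 3365 were then called lower and 1167, 2793 and 3222 higher. Of the 9, 19 and 14 members called, 4, 17 and 13 were also called without the offsets. The medians then stood at 0.03, -0.06 and -0.02. Across the 200 libraries, after the mean of each group and time was removed, the mean level of the 39 genes had a Pearson r of 0.898 with the median level of 1192 other genes of the shortest decile and of -0.657 with that of the longest decile. These levels share the library, its depth and its scaling. RNA integrity values were not used here, and the part that length or RNA quality plays in the diet differences was otherwise not tested.

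**Figure D4:**
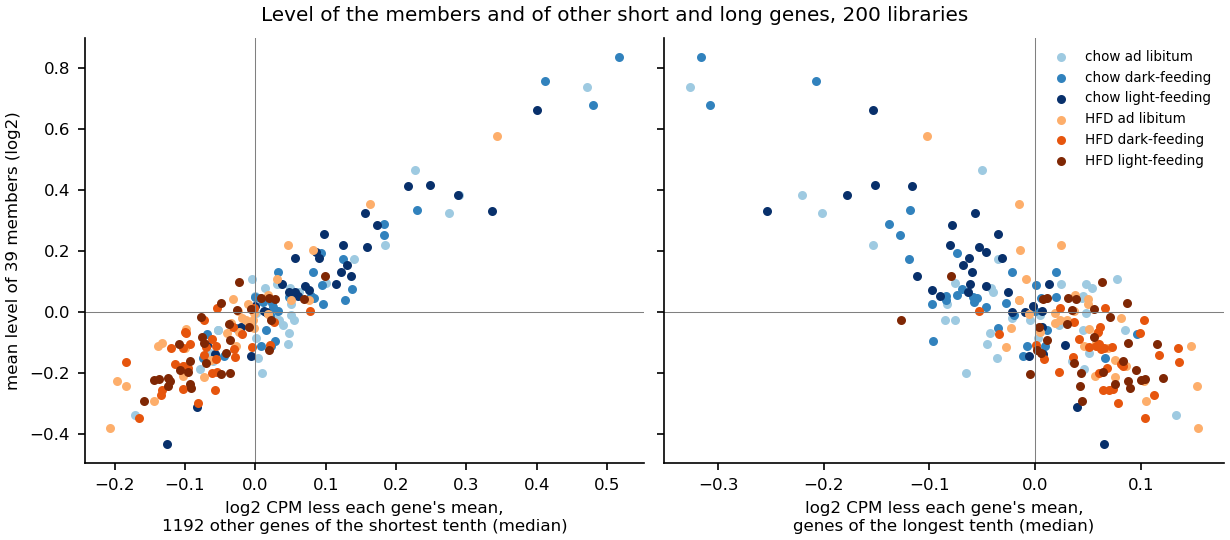
Mean level of the 39 genes (log2, vertical axis) against the median level of 1192 other short genes (left) and of the longest decile of genes (right), each less the gene's mean over 200 libraries, with 1 point per library, coloured by group. The level rises with that of short genes (r = 0.898 after group and time means are removed) and falls with that of long genes (-0.657), and the 6 high libraries stand at the upper end.

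Markers of other cell types moved with diet too. Under dark-feeding and light-feeding all 10 astrocyte markers were called lower on HFD (median log2 fold change -0.59 and -0.76), as were 6 and then all 7 endothelial markers, 5 of 6 mural markers in both, and 5 and then 3 of 5 erythrocyte markers. Microglial markers were lower for 8 and 7 of 13, and oligodendrocyte markers higher for 6 of 10 in both. Of all genes, 23.1% and 25.1% were called lower and 22.8% and 25.1% higher under these schedules. Under ad libitum 0 astrocyte, 1 endothelial, 0 mural, 5 erythrocyte and 6 microglial markers were lower, beside 10.1% of all genes. Oligodendrocyte markers summed there to medians of 14970 CPM on chow and 15860 on HFD. Neuronal markers summed to medians of 5841 CPM on chow and 5853 on HFD under ad libitum, 5756 and 5859 under dark-feeding, and 5728 and 5972 under light-feeding. Astrocyte markers summed to 275.1 to 873.1 CPM in chow dark-feeding and 303.4 to 589.3 in HFD dark-feeding, to 380.8 to 1210.0 in chow light-feeding and 281.4 to 600.4 in HFD light-feeding, and to 305.6 to 1358 and 315.2 to 885.8 under ad libitum. None of these markers was at 0 in all libraries. With the mean levels of the oligodendrocyte, neuronal, astrocyte, endothelial and mural markers as covariates, 8, 14 and 0 of the 39 genes were called lower under ad libitum, dark-feeding and light-feeding, and the medians were -0.09, -0.15 and -0.04. Uqcrq kept -0.37 (edgeR adjusted p = 0.025), Atp5e -0.44 (0.0089), Cox5b -0.30 (0.033) and Cox8a -0.23 (0.011) under dark-feeding in that fit. All genes called fell as well in it, to 1034 under dark-feeding and 1509 under light-feeding.

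The neighbours of these complexes in the respiratory pathway differed to unlike extents. Of 35 complex I subunits (NADH dehydrogenase), 11, 29 and 28 were lower under ad libitum, dark-feeding and light-feeding, and 0, 0 and 1 higher, with medians of -0.12, -0.31 and -0.27, where 10.1%, 23.1% and 25.1% of all genes were lower. Assembly factors of complexes II to V, proteins that build the complexes without being part of them, were lower for 2, 10 and 8 of 33, near the shares of all genes, and higher for 1, 2 and 4. Cytochrome c and coenzyme Q genes were lower for 1, 4 and 5 of 12, citric acid cycle genes for 3, 7 and 7 of 19, carriers of ATP, ADP and phosphate for 4, 7 and 3 of 12, and mitochondrial import genes for 5, 13 and 11 of 24. Mitochondrial ribosomal proteins were lower for 16, 43 and 37 of 74, and cytosolic ribosomal proteins, which lie outside mitochondria, for 30, 64 and 55 of 77. These lists overlap in length with the 39 genes to different degrees, and no list was tested against another.

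Regulators of mitochondrial biogenesis were called in both directions, with 2, 4 and 5 of 19 lower and 2, 4 and 6 higher. These shares are near those of all genes (10.1%, 23.1% and 25.1% lower, 9.96%, 22.8% and 25.1% higher) and say nothing particular about the list. Gabpa, which encodes the DNA-binding part of GABP, an ETS factor, was higher on HFD under all 3 schedules (0.14 ± 0.04, 0.20 ± 0.05 and 0.21 ± 0.04). Esrra (the receptor ERR alpha) was lower under all 3 (-0.16 ± 0.04, -0.21 ± 0.04 and -0.19 ± 0.04), as was Polrmt, the mitochondrial RNA polymerase (-0.13 ± 0.05, -0.16 ± 0.04 and -0.20 ± 0.04). Nrf1 passed under light-feeding (-0.12 ± 0.03) and not under ad libitum or dark-feeding, with 0.01 ± 0.03 and -0.06 ± 0.03. Ppargc1a, the coactivator PGC-1 alpha, passed in 0 of the 3. These regulators were picked for description after their values were known.

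Feeding schedule on its own was compared within each diet. On chow 0 of the 39 genes passed for dark-feeding against ad libitum (0% of all genes called, and 9 of the 39 with an unadjusted p under 0.05), 0 for light-feeding against ad libitum (1.6% of all genes, 9 with an unadjusted p under 0.05) and 0 for light-feeding against dark-feeding (0% of all genes, 1). DESeq2 also called 0 in each. The smallest p in the first belonged to Atp5d, the delta subunit of ATP synthase, at 0.16 ± 0.05 (edgeR adjusted p = 0.38), and in the second to Uqcrq, at 0.29 ± 0.10 (0.097). The medians of the 39 fold changes were 0.06 and 0.09. Without title numbers 49 to 53, libraries of ZT14 left out after seeing the data, light-feeding against ad libitum on chow gave 11 calls, and without ZT14 altogether 12. The share of all genes called is not given for either fit.

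On HFD 9 of the 39 genes were lower under dark-feeding than under ad libitum (2.98% of all genes called lower): Atp5i at -0.38 ± 0.09, Uqcr11 at -0.28 ± 0.07, Cox5a at -0.24 ± 0.07, Cox5b at -0.23 ± 0.07, Atp5g3 at -0.22 ± 0.06, Cox8a at -0.21 ± 0.06, Uqcrb at -0.20 ± 0.06, Atp5g1 at -0.20 ± 0.04 and Sdhc at -0.16 ± 0.04. Light-feeding against ad libitum on HFD gave 5 lower (5% of all genes), which were Atp5i (-0.33 ± 0.09), Uqcr11 (-0.24 ± 0.08), Cox8a (-0.20 ± 0.06), Atp5g1 (-0.15 ± 0.05) and Sdhc (-0.12 ± 0.04), and 1 higher (5.7% of all genes), Uqcrc1 (0.15 ± 0.03). Atp5i had 3.16, 5.53 and 12.0 CPM in HFD ad libitum, 2.80, 4.65 and 8.26 in HFD dark-feeding and 1.79, 4.525 and 7.40 in HFD light-feeding, so that its groups overlapped. These comparisons share the HFD ad libitum libraries. Of those 34 libraries, 28 have title numbers up to 46 and all HFD dark-feeding and light-feeding libraries have higher ones. With the 6 HFD ad libitum libraries of title number over 46 alone, at the times they cover, 0 genes passed in either comparison. The shares of all genes called in those fits are not given. The mean level of the 39 genes had a median of -0.02 in the 28 and -0.14 in the 6. HFD light-feeding against HFD dark-feeding gave 0 calls by edgeR (0.0834% of all genes, 4 of the 39 with an unadjusted p under 0.05) and 1 by DESeq2.

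Whether the diet effect differed between a restricted schedule and ad libitum was tested as an interaction. It was more negative under dark-feeding for 3 genes (0.556% of all genes): Cox8a by -0.37 ± 0.09 (edgeR adjusted p = 0.030), Atp5g3 by -0.36 ± 0.10 (0.034) and Atp5g1 by -0.30 ± 0.08 (0.047). Under light-feeding it was more negative for 5 (3.84% of all genes): Uqcr11 by -0.38 ± 0.12 (0.028), Cox6c by -0.34 ± 0.12 (0.042), Atp5j2 (subunit f of ATP synthase) by -0.34 ± 0.11 (0.026), Atp5g3 by -0.31 ± 0.10 (0.029) and Atp5g1 by -0.26 ± 0.09 (0.035). For the other members the difference between schedules did not pass. These calls moved with the times used: they were 0 and 22 without ZT14, 18 and 22 without ZT18, and 0 and 0 without ZT2 and without ZT22. Both counts were also 0 with marker levels as covariates, with title runs and on log2(FPKM + 0.1). The light-feeding count was 19 without title numbers 49 to 53. The shares of all genes called in these alternative fits are not given, and the shares above do not apply to them. Whether calls over all genes rose or fell alike was therefore not tested here. Both interactions share the ad libitum libraries. Most HFD ad libitum libraries have title numbers up to 46 and all restricted HFD libraries higher ones, so schedule and title order can hardly be told apart here. The interactions were not fitted with the HFD ad libitum libraries of title number over 46 alone.

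**Figure D5:**
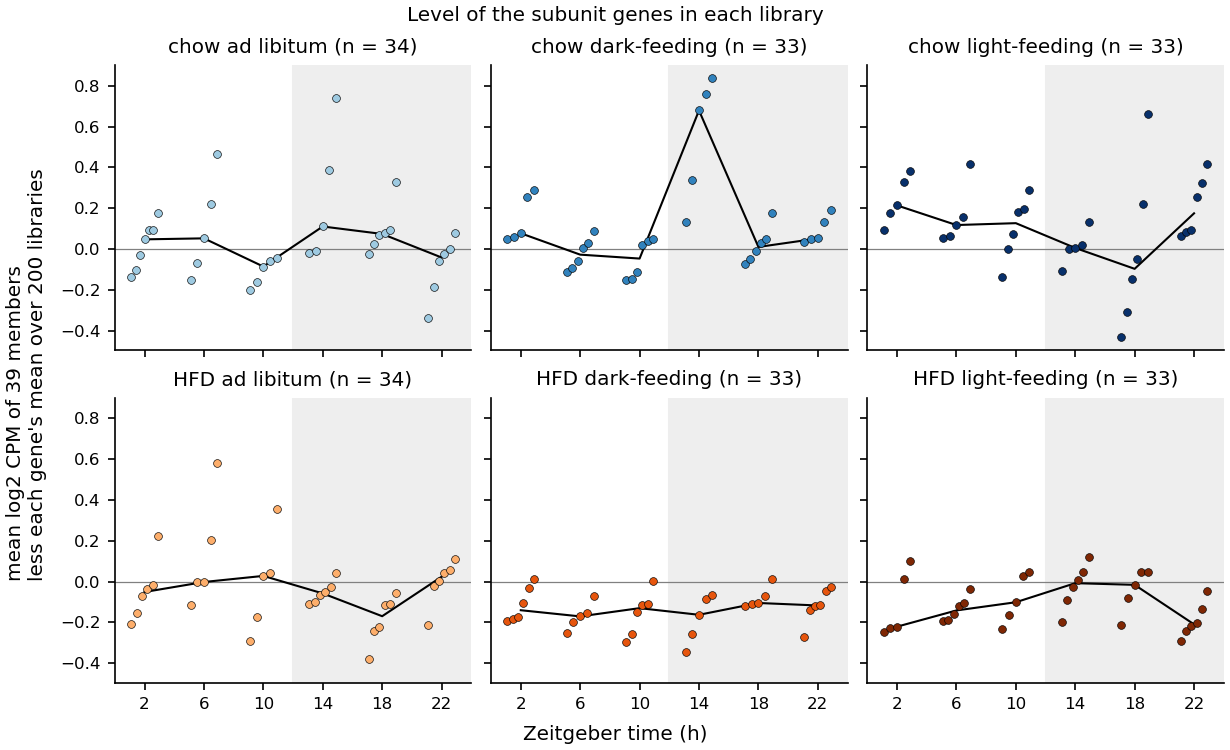
Mean level of the 39 genes (log2, centred on all 200 libraries) against Zeitgeber time in hours for the 6 groups, 1 point per library, with the median at each time as a line and the dark phase shaded. Chow dark-feeding stands out at ZT14 (median 0.68), where 3 of its 5 libraries are among the 6 high libraries, and the medians of HFD dark-feeding and light-feeding stay between -0.22 and -0.01.

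Daily rhythm was tested by a cosine and sine of 24 h within each group. In chow ad libitum 0 of 39 genes passed (4.56% of all genes called, and 0 of the 39 with an unadjusted p under 0.05, also 0 by DESeq2). The smallest p-values there belonged to Uqcrb, with a peak-to-trough fold of 1.24 at ZT15.6 (edgeR adjusted p = 0.29), and Uqcrc2, with 1.09 at ZT17.6 (0.32). In chow dark-feeding 5 passed (22.9% of all genes), all with a peak in the dark phase: Uqcrc2 (1.19-fold at ZT16.1, adjusted p = 0.0046), Uqcrc1 (1.20-fold at ZT16.5), Uqcrb (1.54-fold at ZT14.9), Atp5c1, the gamma shaft of ATP synthase (1.26-fold at ZT14.5), and Atp5b (1.22-fold at ZT17.4). Uqcrc2 had 139.7 to 165.1 CPM at ZT2 (median 149.3) and 165.0 to 183.5 at ZT18 (182.6), ranges that barely met. The times shown for single genes, here and below, were picked after the values were seen. Uqcrb had a median of 25.01 CPM at ZT14 and medians of 11.1 to 13.3 at the other times. The fitted peak of all 39 genes, most of them not called, was in the dark phase in this group, with a median fold of 1.264. The genes vary together between libraries, so the 39 peaks are not independent. The share of all genes that peaked in the dark phase is not given here. Without title numbers 49 to 53, Uqcrc2 and Atp5b were the 2 genes still called, 29 of 39 peaked in the dark phase and the median fold was 1.125.

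In chow light-feeding the fitted peak of 35 of 39 genes lay in the light phase, a count that fell to 21 with marker levels as covariates (0 genes called) and to 25 with the length offsets (1 called). Most of these peaks, too, come from fits that were not called, and they are not independent. The 3 called (20.3% of all genes) were Uqcrq (1.48-fold at ZT2.39, edgeR adjusted p = 0.025), Uqcrc1 (1.17-fold at ZT1.6) and Atp5d (1.298-fold at ZT2.96). Uqcrq had a median of 12.6 CPM at ZT2 (11.3 to 13.1) and 7.66 at ZT18 (6.63 to 17.0), where title number 126 is the high library. Without the 6 high libraries 15 genes passed in this group, and without ZT14 0 did. The shares of all genes called in those fits are not given here. In HFD ad libitum 10 passed (19.6% of all genes). Uqcrc2 peaked in the dark phase, at ZT13.3 (1.16-fold, adjusted p = 0.0018), whereas Uqcrq, Uqcr11, Cox5b, Cox6a1, Cox6c, Cox7b, Atp5a1, Atp5g3 and Atp5o peaked between ZT4.96 and ZT7.38, with folds of 1.19 to 1.496. Uqcrc2 had 148.1 to 172.4 CPM at ZT2 (median 155.9) and 179.6 to 208.4 at ZT14 (185.4), without overlap. These times lie near its fitted trough and peak, so the lack of overlap follows in part from their choice. Atp5o, the peripheral-stalk subunit that confers oligomycin sensitivity (1.35-fold at ZT5.52, adjusted p = 0.0088), had 24.5 CPM at ZT6 and 17.8 at ZT18 (medians). Without the 6 high libraries 6 genes passed (share of all genes not given). In HFD ad libitum most libraries of a time have neighbouring title numbers, so time and title order can hardly be told apart. Title runs were not tried for rhythms.

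In HFD dark-feeding 5 genes passed (27.5% of all genes): Atp5l (1.301-fold at ZT20.6, edgeR adjusted p = 0.0032), Atp5b (1.20-fold at ZT19.2, 0.0074), Cox8a (1.21-fold at ZT19.1), Sdhd (1.15-fold at ZT19.7) and Cox5a (1.29-fold at ZT21.9). Atp5l had 16.6 to 20.3 CPM at ZT10 (median 17.7) and 20.8 to 26.65 at ZT22 (23.55), without overlap. These times and those given for Atp5g2 below were picked after the values were seen, near each gene's fitted trough and peak. The lack of overlap follows in part from that choice. None of the 6 high libraries is in this group. In HFD light-feeding 1 gene passed (0.841% of all genes), Atp5g2 (1.23-fold at ZT11.8, adjusted p = 0.0496), with 26.1 to 28.7 CPM at ZT10 and 19.5 to 23.9 at ZT22, also without overlap. It was lost without ZT14, without the filter on low counts and with edgeR's RLE (relative log expression) scaling. DESeq2 called 2 genes. The next smallest p in that group was that of Cox5b (adjusted p = 0.093).

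Differences in rhythm between groups were tested as interactions of group with the cosine and sine. Between diets 0 genes differed under ad libitum (0% of all genes, 14 of the 39 with an unadjusted p under 0.05) and 0 under dark-feeding (0%, 9), with 0 in both by DESeq2. Under light-feeding 6 differed (9.17% of all genes): Uqcr11, Cox5b, Atp5d, Atp5g2, Atp5o and Atp5j2, with Atp5o at the smallest adjusted p (0.018). Atp5o had medians of 31.0 CPM at ZT2 and 21.6 at ZT14 in chow light-feeding, and 18.3 and 23.1 at these times in HFD light-feeding. Between light-feeding and dark-feeding on chow 20 of 39 differed, beside 37% of all genes, led by Uqcrc1 (adjusted p = 0.000965) and Atp5d (0.0035). Only 4 did so without title numbers 49 to 53 and 1 without ZT14 (shares of all genes not given). The same comparison on HFD gave 6 (21.6% of all genes): Sdhd, Uqcr11, Cox5a, Atp5g2, Atp5o and Atp5l.

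How the genes varied together from library to library was described after the mean of each group and time was removed. Over the 741 pairs the median Pearson r was 0.522 (n = 200 libraries that share the scaling). It was 0.29 within complex II, 0.365 within complex III, 0.636 within complex IV, 0.609 within complex V and 0.529 between complexes. The values within complexes IV and V were thus above, and those within II and III below, the value between complexes. Pairs of short genes had a median of 0.605 and pairs of the 12 longer ones 0.16. The closest pair was Atp5a1 and Atp5b, the alternating subunits of the catalytic head, at 0.867. Cox7a1 (-0.127), Cyc1 (0.0554), Atp5sl (0.0765) and Uqcrc2 (0.128) had the lowest median r with the other genes. The mean level of the 39 genes had an r of 0.945 with complex I subunits, 0.806 with cytosolic ribosomal proteins, 0.503 with astrocyte markers and 0.345 with erythrocyte markers.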

How the data were processed

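Bulk RNA-seq libraries were made from cells labelled microglia with a strand-specific kit after mRNA selection, per the labels' protocols. The authors deposited expected counts per gene (20361 genes, 200 libraries, 8.03% of entries not whole) and FPKM (17611 genes). Reads had been placed on Rnor_6.0, as the submitters' processing notes record. Which aligner and counter the authors ran is not given in the sources used here, nor whether counting used strand. Expected counts were rounded to whole numbers. Depth limits genes of a few CPM most.

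Tests used edgeR 4.0.16 in R 4.3.3 (quasi-likelihood F test, TMM scaling over 200 libraries, filterByExpr, 14393 genes, Benjamini-Hochberg over all of them, threshold 0.05), with Zeitgeber time as a factor, or a 24 h cosine and sine for rhythms. CPM values printed by group used the TMM-scaled library sizes, and the level rule the unscaled totals. Each comparison was fitted on its own groups alone. The scripts were tested on simulated data. Alternatives were DESeq2 1.42.0, edgeR's RLE (relative log expression) scaling, no filter, and limma 3.58.1 on log2(FPKM + 0.1) or log2(FPKM + 1). Others were marker levels as covariates, offsets for transcript length, title-number runs and splines, and leaving out each time. Title runs served the diet, schedule and interaction tests and splines the schedule tests, so neither was tried for rhythms. Leaving out title numbers 49 to 53, the 6 high libraries, or ZT14 for rhythms was chosen after seeing the data.

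The genes and all lists were chosen with earlier results of these data known. Named with values are the genes with the lowest and highest fold change of each complex in each diet comparison, those passing a schedule, interaction or rhythm test (or having the smallest p), those opposite to most of the list, tissue forms and gene copies, and the inhibitor of complex V. Genes of the wider pathway and per-time values were picked after values were seen. No 2 libraries held identical counts (19900 pairs). Promoters come from RefSeq's table for GRCr8 and protein sequences were not used.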

Additional observations from a re-analysis of the deposited data

Results flagged for a closer look

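In 36 sets of libraries of 1 group and time, the highest and lowest mean level of the 39 genes were compared with the rest of the set, and 2 sets had a library far from the others. These were the highest library of chow ad libitum at ZT18 (0.33) and that of chow light-feeding at ZT6 (0.42), both on the centred log2 scale. Chance marks about 1 in 20 sets.

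The diet effect differed between dark-feeding and ad libitum for Cox8a (-0.37), Atp5g1 (-0.30) and Atp5g3 (-0.36), and between light-feeding and ad libitum for Uqcr11 (-0.38), Cox6c (-0.34), Atp5g1 (-0.26), Atp5g3 (-0.31) and Atp5j2 (-0.34), on the log2 scale by edgeR's interaction test. The daily pattern differed between diets under light-feeding for 6 of the 39 genes, between light-feeding and dark-feeding on chow for 20, and between them on HFD for 6.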

How the results depend on the processing

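Of 331 counts of the 39 genes recomputed under alternatives, 222 stayed within 1.5 times the reported count. Of 1671 values of named genes, 1276 kept the call, 364 lost it, 22 gained it and 9 turned. A turn was counted only for a gene called in at least 1 of the 2 fits, and not for rhythms. Genes called in neither fit could thus change sign and still count as keeping the call. Where a count moved, the cause was not tested beyond what the alternative itself changes. No paired analysis was possible because replicate numbers are names in accession order. Genes of a few CPM are limited by depth.

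Counts are of called genes among the 39, and the share of all genes called under each alternative is not given beside them. With length offsets, lower and higher calls by diet were 4 and 5 (ad libitum), 15 and 4 (dark-feeding) and 12 and 2 (light-feeding), chow light-feeding against ad libitum gave 2, the light-feeding interaction 3, rhythms 1 in chow light-feeding, 4 in HFD ad libitum and 0 in HFD light-feeding, and rhythm differences 0 by diet under light-feeding and 6 between schedules on chow. The ad libitum median turned to 0.0332 and Cox8a to 0.13 (edgeR adjusted p = 0.012). With marker levels, lower calls were 14 under dark-feeding and 0 under light-feeding with 0 higher in both, HFD schedule effects 0 (dark) and 1 (light), interactions 0 and 0, rhythms 3 in chow dark-feeding, 0 in chow light-feeding, 1 in HFD ad libitum, 3 in HFD dark-feeding and 0 in HFD light-feeding, and rhythm differences 0 by diet under light-feeding and 4 between schedules on chow. Cox8a under light-feeding turned to 0.11.

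With title runs, 0 were lower under ad libitum, 0 higher under dark-feeding and 0 under light-feeding, and both HFD schedule effects and both interactions gave 0. With HFD ad libitum title numbers over 46 alone, 4 were lower under ad libitum and both HFD schedule effects gave 0. Uqcrb (0.014), Uqcr11 (0.0429) and Cox5b (0.0879) turned for dark-feeding, and Sdhc (0.0336), Uqcr11 (0.21), Cox8a (0.0483) and Atp5g1 (0.0585) for light-feeding. With a title spline, HFD schedule effects were 3 (dark) and 0 (light).

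On log2(FPKM + 0.1), 0 were higher by diet under dark-feeding and 0 under light-feeding (also 0 and 0 with FPKM + 1 and with a mean FPKM of 1 or more), HFD schedule effects were 2 and 1, interactions 0 and 0, and chow dark-feeding rhythms 3. DESeq2 gave 1 for HFD light-feeding against dark-feeding, 6 for the dark-feeding interaction, and rhythms of 5 in chow light-feeding and 2 in HFD light-feeding. RLE scaling in edgeR gave 0 rhythms in HFD light-feeding. With no filter, HFD light-feeding against ad libitum gave 3, the light-feeding interaction 3 and HFD light-feeding rhythms 0.

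Without ZT2, 4 were lower under ad libitum, 0 higher under light-feeding, HFD schedule effects 5 and 2, and interactions 0 and 0. Without ZT6, 0 were higher under light-feeding, HFD schedule effects 3 and 3, and the light-feeding interaction 0. Without ZT10, 0 were higher under dark-feeding and 0 under light-feeding, and the light-feeding interaction was 0. Without ZT14, 3 were lower under ad libitum, chow light-feeding gave 12 against ad libitum and 1 against dark-feeding, HFD dark-feeding against ad libitum 2, interactions 0 and 22, rhythms 0 in chow light-feeding, 4 in HFD ad libitum and 0 in HFD light-feeding, and rhythm differences 0 by diet under light-feeding, 1 between schedules on chow and 3 on HFD. Without ZT18, 2 were lower under ad libitum, 2 higher under dark-feeding and 0 under light-feeding, chow light-feeding against ad libitum gave 3, HFD light-feeding against ad libitum 15, and interactions 18 and 22. Without ZT22, 0 were higher under dark-feeding, HFD schedule effects 4 and 1, HFD light-feeding against dark-feeding 1, and interactions 0 and 0.

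Without the 6 high libraries, 2 were higher under light-feeding, chow light-feeding against ad libitum gave 3, the light-feeding interaction 10, rhythms 2 in chow dark-feeding, 15 in chow light-feeding and 6 in HFD ad libitum, and rhythm differences 14 by diet under light-feeding and 9 between schedules on chow. Without title numbers 49 to 53, chow light-feeding against ad libitum gave 11, the light-feeding interaction 19, chow dark-feeding rhythms 2 and rhythm differences between schedules on chow 4.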
